A study of Rattus norvegicus with 24 samples.

Results

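Gene counts of PC12 cells carrying the empty pcDNA3 vector were compared between the libraries labelled 24 h and those labelled 6 h. The members are the 6 libraries whose titles give the vector line at these times, 3 at each time, of 24 libraries in the series. PC12 is a rat line from a pheochromocytoma, a tumour of the chromaffin cells of the adrenal medulla, and serves as a model of chromaffin and neuronal cells. pcDNA3 is a plasmid for expression in mammalian cells. The vector line serves as the control of a line with stable expression of human α1ACT, a protein from the 3′ part of the calcium channel gene CACNA1A that acts as a transcription factor. Both lines were labelled at 6 h, 24 h, 3 d and 10 d, with 3 libraries in each of the 8 groups, and the series asks which genes α1ACT alters over time.

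Everything but the time label is shared by the groups compared here: the empty vector, passages 18 to 20, F-12K medium with horse serum and fetal bovine serum, medium changes every few days and no treatment. What the times were counted from is not stated, nor when the medium was last changed before RNA was taken. Each line is 1 stable line. The 3 libraries per group are described as biological replicates, with nothing to say whether separate cultures were used. The p-values below therefore rest on the spread between libraries within groups, estimated over all 24 libraries, and this spread may be technical.

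The files of the 3 libraries labelled 24 h are named for the vector line at 3 d, and those labelled 6 h are named as labelled. By the labels the comparison is 24 h against 6 h in the vector line, and by the file names it is 3 d against 6 h in the same line. Across the series 18 of 24 files are named for another group than their label. The replicate numbers of labels and file names were the same in all 24. The libraries on each side of the comparison are the same under both readings, so the values below hold for either. In what follows, 6 h and 24 h are the labelled times.

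Proliferating cells keep up a programme of DNA replication, histone and mitotic genes, driven by E2F factors and the MuvB complexes. Cells short of amino acids, or with unfolded protein in the endoplasmic reticulum, phosphorylate the translation factor eIF2α. Translation then slows, while the transcription factor ATF4 is made and raises genes for amino acid uptake, amino acid synthesis and tRNA charging. This programme is called the integrated stress response. The unfolded protein response is a related programme that raises the chaperones of the endoplasmic reticulum.

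Depth on genes was 10118539 to 14486248 counts in the 6 libraries and 8679560 to 14486248 in all 24. Levels are given as CPM, a gene's counts scaled to a common total per library, and 3 counts, taken as the detection floor, corresponded to 0.207 to 0.297 CPM per library. Such a floor covers counting error only. Of the uniquely aligned reads, those outside annotated genes were 48.7% ± 0.839 (SD, n = 3) at 6 h and 50.4% ± 0.359 at 24 h. Alignments that were not unique numbered 82.96 to 89.7 per 100 uniquely aligned reads in the 6 libraries and are not in the gene counts. Over all tested genes, libraries of the same group lay at a root mean square distance of 0.205 to 0.295 log2 CPM and libraries of different groups at 0.635 to 0.723. Libraries 1 and 3 were the closest pair in both groups and library 2 lay farther off, and 24 h library 2 was the farthest from every 6 h library. The markers of chromaffin cells were present in all 6 libraries: Th, for tyrosine hydroxylase, had 5375 to 5719 CPM at 6 h and 4779 to 5154 CPM at 24 h. Chgb, for the granule protein chromogranin B, had 9548 to 10260 CPM and 9264 to 10160 CPM. All 11 markers used had counts in every library. The files hold rat genes, so neither the vector nor the human transgene is measured in them.

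At 24 h the vector cells had more RNA from genes of the integrated stress response, of serine synthesis, of amino acid uptake and of tRNA charging, and less from genes of mitosis, DNA replication, cholesterol synthesis and the contractile cytoskeleton. Of the stress response genes tested 21 of 22 were higher, and of the mitosis genes 29 of 30 were lower. These and the other lists are described below after the counts over all genes.

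Of 9994 genes tested with the quasi-likelihood F-test of edgeR, 6149 (61.5%) passed an adjusted p of 0.05, with Benjamini-Hochberg adjustment over all of them. At 24 h 3161 (31.6%) were higher and 2988 (29.9%) were lower. Most changes were small, with a median fold of 1.36 among the called genes. In 897 genes (8.98%) the fold was at least 2, with 398 higher and 499 lower, and in 188 it was at least 4. For 6616 genes (66.2%) the 3 libraries of each group did not overlap. Without 24 h library 2 the count of calls was 5787, of which 5606 were among the 6149. The median log2 fold change of all tested genes was 0.0202. Shares of members are read against these figures, and rose or fell is written only of a gene past that threshold.

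The genes with the largest rises and falls, among those with a mean of at least 2 CPM over the 6 libraries and no overlap, came from several programmes. Inhbe, for an activin subunit, had 1, 1 and 2 counts at 6 h and 137, 150 and 163 counts at 24 h, 96.4 times as many after allowing for depth (95% interval from counting 37.4 to 355). Il9r, for the interleukin 9 receptor, had 2 counts in all at 6 h and 242 at 24 h, a ratio of 104 (28.4 to 861). Both genes were near the floor at 6 h, so the size of their rise is known only within these intervals, which cover counting error only. Casp4, for an inflammatory caspase, had 3.81, 2.60 and 3.40 CPM at 6 h and 67.6, 107 and 81.8 CPM at 24 h (log2 fold change 4.70 ± 0.26 SE, adjusted p = 6.14e-14). Creb3l1, for a transcription factor held in the membrane of the endoplasmic reticulum, had 0.355, 0.347 and 0.600 CPM and 11.4, 16.1 and 12.7 CPM (log2 fold change 4.93 ± 0.34 SE, adjusted p = 3.03e-12). At 6 h Creb3l1 lay near the floor of these libraries (0.2642, 0.2559 and 0.2965 CPM), so the size of its rise is uncertain. In each of these genes all 24 h libraries were above all 6 h libraries. Trim66, Col4a1, Stard8, Kif21b, Fa2h, Cth, Chac1 and Slc7a11 completed the 12 largest rises.

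Among the falls, Sprr1a, a small proline-rich protein known from regenerating neurons, had 105, 89.5 and 96.6 CPM at 6 h and 4.37, 3.17 and 3.57 CPM at 24 h (log2 fold change -4.69 ± 0.20 SE, adjusted p = 5.47e-16). Fosl1, for the AP-1 factor FRA-1, had 14.99, 14.7 and 17.3 CPM and 0.370, 0.747 and 1.17 CPM (log2 fold change -4.32 ± 0.30 SE, adjusted p = 3.90e-12). In 24 h library 1 Fosl1 lay near the floor of 0.2246 CPM, so the size of its fall is uncertain. Dclk1, for a microtubule-binding kinase of growing neurons, had 103, 88.0 and 95.2 CPM and 6.29, 4.01 and 5.42 CPM (log2 fold change -4.16 ± 0.19 SE, adjusted p = 2.29e-15). All 3 genes fell by over 4 on the log2 scale, with no 24 h library near a 6 h library. Lgals3, for the sugar-binding protein galectin 3, fell from 111, 125 and 116 to 7.41, 10.4 and 7.82 CPM (log2 fold change -3.80 ± 0.20 SE, adjusted p = 3.48e-14). Il33, for a cytokine of the interleukin 1 family, had 142 counts in all at 6 h and 5 at 24 h, a fall by a factor of 33.1 (95% interval from counting 13.9 to 104). Myl9, Lrrn3, Stmn4, Mpzl2, Mlf1, Prrg4 and Pik3r5 completed the 12 largest falls.

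**Figure D1:**
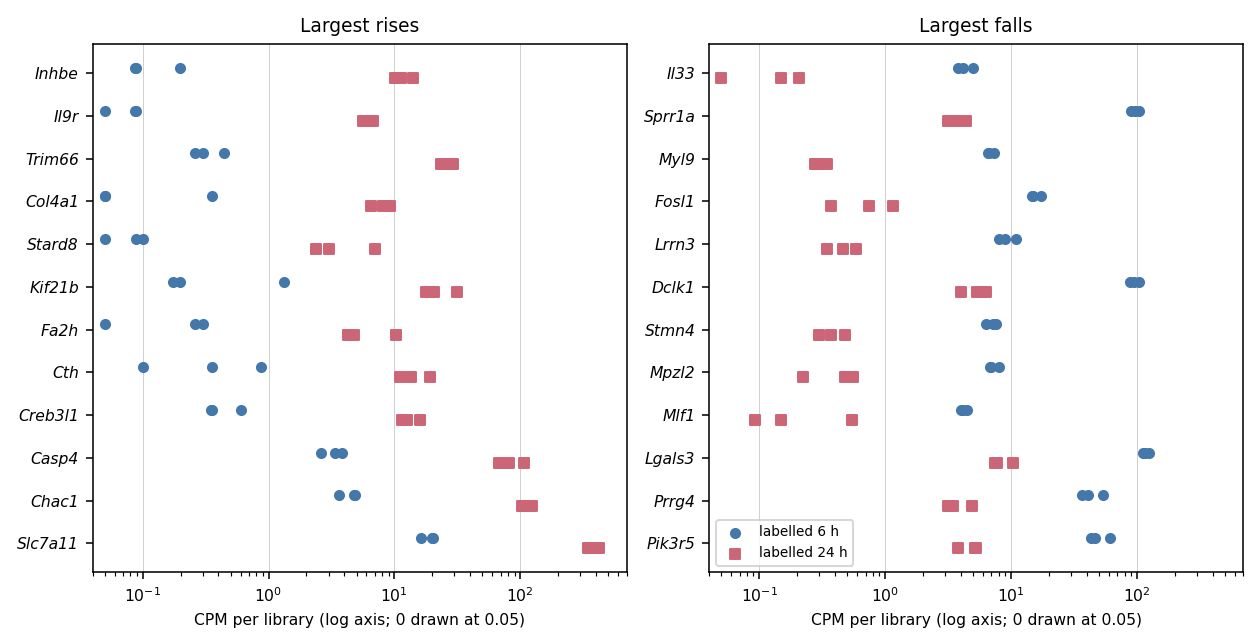
CPM per library (log axis, values of 0 drawn at 0.05) of the 12 genes with the largest rises (left) and the 12 with the largest falls (right); circles are the 3 libraries labelled 6 h and squares the 3 labelled 24 h. The groups do not overlap in any of the 24 genes, which the selection required, and several of the risen genes start below the detection floor of 0.207 to 0.297 CPM.

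Genes of the integrated stress response rose together. Of 22 tested, 21 were higher and 1 lower, with a median log2 fold change of 1.91, and 20 of the calls were of at least 2-fold. The summed level of the list went from 1425 to 1633 CPM at 6 h to 5584 to 6256 CPM at 24 h. Atf4, the transcription factor at its centre, had 386, 477 and 384 CPM at 6 h and 956, 1077 and 1015 CPM at 24 h, all 24 h libraries above all 6 h libraries (log2 fold change 1.29 ± 0.10 SE, adjusted p = 5.00e-11). The member that fell was Eif2ak4, for the eIF2α kinase GCN2 (log2 fold change -0.68 ± 0.056 SE, adjusted p = 9.43e-11).

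Targets of ATF4 were among the genes with the largest changes. Ddit3, for the factor CHOP, had 46.8, 45.8 and 48.2 CPM at 6 h and 232, 295 and 246 CPM at 24 h (log2 fold change 2.45 ± 0.091 SE, adjusted p = 5.13e-17). Trib3, for a pseudokinase, had 51.5, 46.9 and 47.7 CPM and 276, 283 and 287 CPM (log2 fold change 2.53 ± 0.097 SE, adjusted p = 9.31e-17). Chac1, for an enzyme that degrades glutathione, had 4.88, 4.77 and 3.60 CPM and 103, 123 and 108 CPM (log2 fold change 4.64 ± 0.15 SE, adjusted p = 1.22e-17). Each of the 3 genes was several times higher in every 24 h library than in any 6 h library. Sesn2, for the leucine sensor sestrin 2, had 27.0, 25.6 and 25.9 CPM and 149.5, 175 and 150.4 CPM (log2 fold change 2.60 ± 0.083 SE, adjusted p = 1.22e-17). Stc2, for the secreted protein stanniocalcin 2, had 40.7, 46.1 and 39.0 CPM and 702, 817 and 720.1 CPM (log2 fold change 4.15 ± 0.15 SE, adjusted p = 4.13e-17). Asns, for asparagine synthetase, rose less than these, from 172, 210.0 and 184 to 465, 552 and 482 CPM (log2 fold change 1.40 ± 0.092 SE, adjusted p = 1.42e-12).

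ATF4 and its partners are known to bind a composite element, searched here as TGATGNAA on both strands in the RefSeq promoter windows of GRCr8, each 250 bases before to 50 after a gene's start. The stretches around the match in 3 genes that rose are shown so that the element can be read in its context, with the match in capitals. They lie at chr3:126795934-126796001, plus strand (Chac1), chr3:161275517-161275584, minus strand (Trib3) and chr7:65023733-65023800, minus strand (Mars, for methionyl-tRNA synthetase), and are written 5′ to 3′ along the gene.
Chac1: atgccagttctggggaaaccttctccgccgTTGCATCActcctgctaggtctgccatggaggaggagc
Trib3: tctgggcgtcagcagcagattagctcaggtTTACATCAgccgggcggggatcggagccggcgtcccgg
Mars: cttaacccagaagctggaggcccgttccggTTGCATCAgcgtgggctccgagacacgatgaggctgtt
In all 3 the match lies on the strand opposite to the gene. The element was present in 4 of 20 integrated stress response genes with a promoter in the table (20.0%) and in 7 of 17 aminoacyl-tRNA synthetase genes (41.2%), against 2.03% of all tested genes with a promoter. It was present in 3 of 12 amino acid transporter genes and in 1 of 8 genes of serine synthesis and mitochondrial folate. A match is a description of these letters and not a bound site.

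The genes that supply amino acids and one-carbon units moved with this list. Of 10 tested genes of serine synthesis and mitochondrial folate, 8 were higher and 2 lower, with a median log2 fold change of 1.85. Phgdh, for the enzyme that commits glycolytic carbon to serine, had 36.1, 35.0 and 38.2 CPM at 6 h and 192, 220.4 and 215 CPM at 24 h (log2 fold change 2.52 ± 0.13 SE, adjusted p = 1.41e-14). Psat1, for the next enzyme of that route, had 74.2, 87.0 and 78.0 CPM and 381, 474 and 391 CPM (log2 fold change 2.38 ± 0.12 SE, adjusted p = 1.46e-14). In both genes all 24 h libraries were above all 6 h libraries. The mitochondrial enzymes Shmt2 and Mthfd2 rose by 1.70 ± 0.080 and 1.53 ± 0.093 (log2, SE). Their cytosolic counterparts Shmt1 and Mthfd1 were the 2 members that fell, by 0.41 and 0.56 on the log2 scale, and were singled out after their values were seen.

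Of 14 tested amino acid transporters, 12 were higher and 1 lower, with a median of 1.120. Slc7a11, for the exchanger that imports cystine, had 20.1, 16.2 and 19.9 CPM at 6 h and 347, 424 and 389 CPM at 24 h (log2 fold change 4.37 ± 0.23 SE, adjusted p = 2.75e-14). It showed the largest rise of the list, with every 24 h library far above every 6 h library. Slc7a5 and Slc3a2, for the light and heavy chain of the leucine transporter LAT1, rose together, by 1.91 ± 0.11 and 1.60 ± 0.074. Slc6a9, for a glycine transporter, rose by 2.52 ± 0.12 and Slc7a1, for a transporter of arginine and lysine, by 1.11 ± 0.086. The member that fell was Slc36a4 (log2 fold change -0.16 ± 0.066 SE, adjusted p = 0.0379), a call lost without 6 h library 1 or 3 or 24 h library 2 or 3 (adjusted p up to 0.333), and also when scaled by library size alone (0.0799) or fitted with the 6 libraries alone (0.0787).

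All 20 cytosolic aminoacyl-tRNA synthetases tested passed the threshold, 16 higher and 4 lower, with a median of 0.95. Eprs, which charges glutamate and proline tRNAs, had 467, 536 and 473 CPM at 6 h and 1443, 1761 and 1529 CPM at 24 h (log2 fold change 1.68 ± 0.093 SE, adjusted p = 5.94e-14). Mars, Wars, Sars, Aars and Gars, for the enzymes of methionine, tryptophan, serine, alanine and glycine, rose by 1.46, 1.44, 1.35, 1.14 and 1.01 on the log2 scale. Not every synthetase shared the rise. Hars, Kars, Rars and Dars, for histidine, lysine, arginine and aspartate, fell by 0.14 to 0.30 on the same scale, small but past the threshold. The call of Dars was lost without 24 h library 1 (edgeR, adjusted p = 0.0504), and that of Hars without all libraries numbered 1 (0.0623) or 3 (0.109).

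Chaperones and degradation factors of the endoplasmic reticulum rose in part. Of 35 tested, 21 were higher and 4 lower, with a median of 0.18. Herpud1, which helps to clear misfolded protein from the endoplasmic reticulum, had 151, 166 and 161 CPM at 6 h and 561, 695 and 607 CPM at 24 h (log2 fold change 1.96 ± 0.069 SE, adjusted p = 2.94e-17). Hspa5, for the chaperone BiP, had 802, 1005 and 821 CPM and 1876, 2777 and 2107 CPM (log2 fold change 1.36 ± 0.095 SE, adjusted p = 4.12e-12). In both genes the groups were far apart, and 24 h library 2 held the highest value. Sel1l, for a subunit of the degradation complex, rose by 1.54 ± 0.076, Dnajb9 by 0.74 ± 0.067 and Hsp90b1, for the chaperone GRP94, by 0.35 ± 0.090. Xbp1, for a transcription factor of the unfolded protein response, had 117, 140.1 and 124 CPM and 129.5, 147 and 142 CPM and did not pass (log2 fold change 0.13 ± 0.065 SE, adjusted p = 0.0763), but passed as higher without 6 h library 2 (adjusted p = 0.0101) or 24 h library 1 (0.0312) and, with all libraries, when scaled by library size alone (0.0354). Eif2ak3, for the eIF2α kinase PERK, was among the 4 that fell (log2 fold change -0.24 ± 0.070 SE, adjusted p = 0.004).

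The element of such chaperone genes, searched as CCAAT and, after 9 bases of any kind, CCACG on both strands, was present in 9 of the 28 genes of this list with a promoter (32.1%) and in 0.198% of all tested genes with one. Of 14 genes called higher with a promoter 5 held it, and of 4 called lower 0. Xbp1, Creld2, Derl3 and Ero1lb held it as well and did not pass. The stretch of Hspa5, at chr3:38452943-38453021, plus strand, is shown because BiP is the best known of these chaperones, with the match in capitals.
Hspa5: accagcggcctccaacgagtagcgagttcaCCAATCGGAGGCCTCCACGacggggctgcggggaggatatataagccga
No match in a window says only that these letters are not there.

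Genes known from starvation and from FOXO factors, and genes of the lysosome, were mostly higher. Of 18 tested starvation-response genes 14 rose and 2 fell, with a median of 0.54. Bnip3, for a receptor of mitochondrial autophagy, had 217, 216 and 217 CPM at 6 h and 504, 589 and 534 CPM at 24 h (log2 fold change 1.32 ± 0.074 SE, adjusted p = 7.24e-14). Ccng2, for a cyclin of resting cells, had 60.1, 56.1 and 57.2 CPM and 141, 137 and 139 CPM (log2 fold change 1.26 ± 0.049 SE, adjusted p = 9.45e-17). Neither gene's groups overlapped. Irs2, for an adaptor of the insulin receptor, rose by 0.51 ± 0.057, Txnip, for an inhibitor of thioredoxin and glucose uptake, by 0.85 ± 0.11, and Tsc22d3, for the factor GILZ, by 1.07 ± 0.078.

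Of 34 tested lysosome and autophagy genes 25 rose and 2 fell, with a median of 0.40. Gaa, for acid glucosidase, had 307, 276 and 321 CPM at 6 h and 555, 630.1 and 563 CPM at 24 h, with the highest value in 24 h library 2 and no overlap (log2 fold change 0.95 ± 0.070 SE, adjusted p = 1.24e-11). Sqstm1, for the autophagy receptor p62, rose by 0.87 ± 0.064, Grn, for progranulin, by 0.49 ± 0.052 and Lamp1, for a lysosomal membrane protein, by 0.37 ± 0.051. Ctsd, for cathepsin D, passed with a smaller change (log2 fold change 0.18 ± 0.061 SE, adjusted p = 0.014), its groups overlapped, and it did not pass without 24 h library 2 or 6 h library 2 (adjusted p = 0.137 and 0.0993 in edgeR). The palindrome TCACGTGA, the core of the element bound by TFEB, was found in 5 of 25 promoters of the list (20.0%) and in 1.81% of those of all tested genes. The window of Lamp1, at chr16:83075065-83075159, minus strand, holds it at 2 places.
Lamp1: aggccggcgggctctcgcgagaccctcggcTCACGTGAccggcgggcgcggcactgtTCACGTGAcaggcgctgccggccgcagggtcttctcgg

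Ribosomal protein genes moved little and were mostly higher. Of 71 tested, 42 were higher and 3 lower, with a median of 0.32 and none at 2-fold. Rplp0, of the ribosomal stalk, had 1552, 1575 and 1608 CPM at 6 h and 1963, 2368 and 2066 CPM at 24 h (log2 fold change 0.43 ± 0.060 SE, adjusted p = 7.56e-07). Rpl24 rose by 0.59 ± 0.065 and Rpl3 by 0.45 ± 0.070. Ribosomal protein genes have many near-identical pseudogenes, so reads may be shared or lost: Rps6, a major protein of the small subunit, had 4.70, 14.99 and 2.90 CPM and 9.78, 5.97 and 10.2 CPM, and passed as higher without 6 h library 2 alone (edgeR, adjusted p = 0.0195). Genes that build ribosomes showed no such shift, with 4 of 27 higher, 10 lower and a median of -0.093. Of all tested genes 31.6% were higher and 29.9% lower. Fbl, for the methylase fibrillarin, fell by 0.96 on the log2 scale, whereas Npm1, for nucleophosmin, rose by 0.24 ± 0.060.

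**Figure D2:**
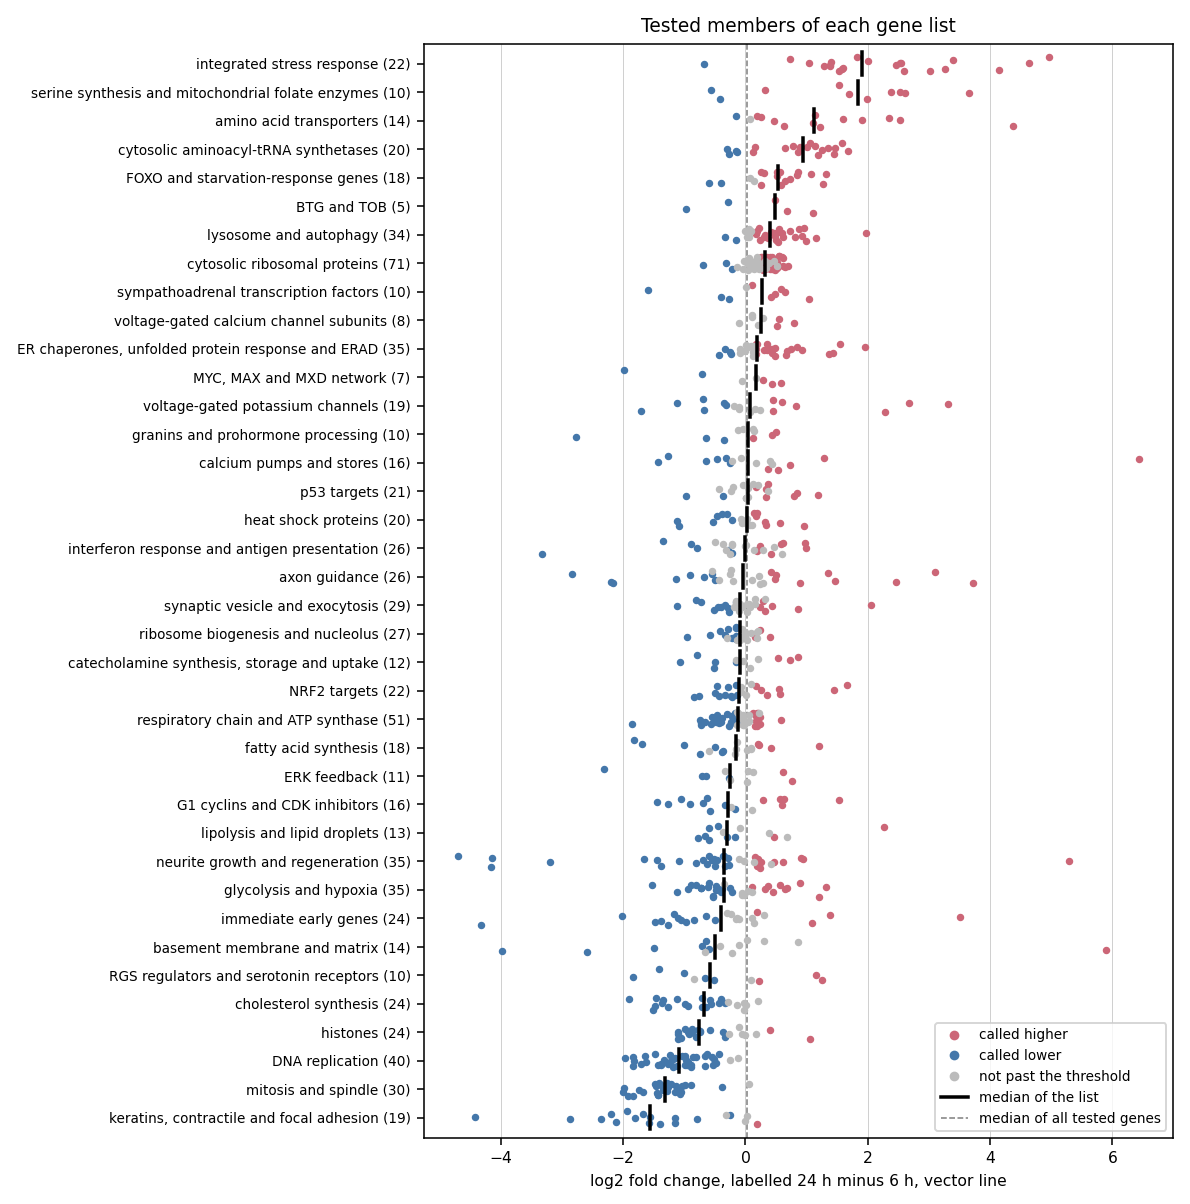
Log2 fold change (labelled 24 h minus 6 h, vector line) of each tested member of 38 gene lists, with the number tested in brackets; red points were called higher, blue lower and grey did not pass, black bars are list medians and the dashed line is the median of all tested genes. The integrated stress response has the highest median, 1.91, and the keratin, contractile and adhesion list the lowest, -1.57, with the mitosis list just above it at -1.32.

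Genes of cell division were lower, with few exceptions. Of 30 mitosis and spindle genes tested, 0 were higher and 29 lower, 26 of them by at least 2-fold, with a median of -1.32. The summed level of the list went from 6998 to 7073 CPM at 6 h to 2443 to 3109 CPM at 24 h. Top2a, for the topoisomerase that untangles chromosomes, had 748, 726 and 773 CPM at 6 h and 274, 190.5 and 238 CPM at 24 h (log2 fold change -1.68 ± 0.098 SE, adjusted p = 1.63e-13). Prc1, which bundles microtubules of the spindle midzone, had 506, 488 and 525 CPM and 144, 121 and 137 CPM (log2 fold change -1.92 ± 0.087 SE, adjusted p = 2.13e-15). Cdk1, for the kinase that starts mitosis, had 219, 220.3 and 234 CPM and 88.4, 71.3 and 80.8 CPM (log2 fold change -1.48 ± 0.084 SE, adjusted p = 9.50e-14). In all 3 genes every 24 h library was below every 6 h library, and 24 h library 2 was the lowest. Its cyclins fell too, Ccnb1 by 1.16 and Ccna2 by 1.98 on the log2 scale, as did the checkpoint kinases Ttk and Bub1, by 2.00 and 1.05, and the spindle motor Kif11, by 1.29. The member that did not pass was Hmmr (log2 fold change 0.054 ± 0.095 SE, adjusted p = 0.644). In bulk RNA, fewer cells in a phase of the cycle and less RNA per cell cannot be told apart.

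Of 40 DNA replication genes tested, 0 were higher and 38 lower, with a median of -1.08. Mcm5 and Mcm6, for subunits of the replicative helicase, fell by 1.22 and 1.63 on the log2 scale. Pcna, for the sliding clamp of the polymerases, had 799, 769 and 826 CPM at 6 h and 354, 303 and 335 CPM at 24 h (log2 fold change -1.27 ± 0.083 SE, adjusted p = 1.23e-12). Rrm2, for the regulated subunit of ribonucleotide reductase, had 66.7, 64.2 and 68.5 CPM and 17.3, 16.1 and 17.2 CPM (log2 fold change -1.97 ± 0.13 SE, adjusted p = 1.22e-12). The groups of both genes lay well apart. Tk1, for thymidine kinase, fell by 1.84 and Tyms, for thymidylate synthase, by 1.71. Cdt1, which licenses origins, and Pold1, of DNA polymerase δ, did not pass, at -0.26 and -0.13, but passed as lower without 24 h library 3 and 24 h library 1 respectively (edgeR, adjusted p = 0.0309 and 0.0386).

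Known promoter elements of the cell cycle were searched on both strands. TTTGAA, the core of the cell cycle homology region bound by MuvB complexes, was found in 19 of 25 promoters of the mitosis list (76.0%) and in 10.8% of those of all tested genes. The E2F element, searched as TTTNGCGC or TTTCCCGC, was found in 15 of 34 replication promoters (44.1%) and in 4.51%. The stretches of Prc1 and Cdk1, with the former element in capitals, and of Mcm5, with the latter, are shown as examples among the genes that fell. They lie at chr1:143659433-143659498, plus strand, chr20:19265247-19265312, plus strand and chr19:13488775-13488842, plus strand.
Prc1: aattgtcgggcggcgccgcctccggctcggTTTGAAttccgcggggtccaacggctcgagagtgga
Cdk1: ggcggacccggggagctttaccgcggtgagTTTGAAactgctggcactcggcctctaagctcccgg
Mcm5: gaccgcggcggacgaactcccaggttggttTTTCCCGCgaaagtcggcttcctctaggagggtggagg
All 3 printed matches lie shortly before the start. Cdk1 holds a further TTTGAA and Mcm5 further E2F matches upstream of the stretch shown.

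Histone genes were mostly lower. Of 24 tested, 17 fell and 2 rose, with a median of -0.76. H2afz, for a variant H2A of gene starts, had 363, 392 and 373 CPM at 6 h and 223, 231 and 222 CPM at 24 h (log2 fold change -0.74 ± 0.073 SE, adjusted p = 2.79e-09). The linker histone Hist1h1a had 51.6, 55.7 and 51.0 CPM and 28.7, 24.3 and 29.9 CPM (log2 fold change -0.93 ± 0.22 SE, adjusted p = 0.000611). The groups did not overlap in either gene. The risers were Hist2h2ab, at 1.05, and H1f0, the linker histone of resting cells, at 0.41. Histone genes have near-identical copies, so single members are uncertain.

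The regulators of entry into the cycle moved in both directions, with 5 of 16 higher and 9 lower, against 31.6% and 29.9% of all tested genes. Ccnd1, for the G1 cyclin D1, rose from 632, 609 and 650.3 to 983, 953 and 978 CPM (log2 fold change 0.62 ± 0.065 SE, adjusted p = 7.56e-09). Cdkn1b, for the inhibitor p27, rose from 64.7, 77.9 and 68.2 to 108, 105 and 107 CPM (log2 fold change 0.60 ± 0.073 SE, adjusted p = 9.76e-08). Both genes were higher in all 24 h libraries. Cdkn1a, for the inhibitor p21, had 185, 130.1 and 187 CPM and 152, 119 and 152 CPM, overlapping groups, and did not pass (log2 fold change -0.24 ± 0.12 SE, adjusted p = 0.0794). It passed as lower without 6 h library 2 (-0.40, adjusted p = 0.00358) and, with all libraries, without the filter on low counts (adjusted p = 0.0373). E2f7, for a repressor of the cycle, and Rbl1, for p107, fell by 1.44 and 1.05 on the log2 scale. Of the 5 antiproliferative BTG and TOB genes tested 3 rose and 2 fell. Btg1 rose by 1.10 ± 0.11, with Tob1 and Tob2, whereas Btg2 was among those that fell, by 0.98.

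Cholesterol synthesis genes were lower but not throughout. Of 24 tested, 0 were higher and 18 lower, with a median of -0.68. Fdps, which makes farnesyl diphosphate, had 443, 501 and 470.5 CPM at 6 h and 158, 176 and 165 CPM at 24 h (log2 fold change -1.505 ± 0.075 SE, adjusted p = 7.74e-15). The groups were well apart. Cyp51, Sqle and Hsd17b7, for enzymes of the sterol branch, fell by 1.47, 0.99 and 1.91 on the log2 scale. Insig1, a regulator of sterol sensing, had 156, 186 and 168 CPM and 157, 185 and 162 CPM. It overlapped between groups and did not pass (edgeR, adjusted p = 0.906), and Hmgcs1 did not pass either (log2 fold change -0.28 ± 0.19 SE, adjusted p = 0.197), although it passed as lower in a fit of the 6 libraries alone (adjusted p = 0.0484). The sterol element TCACNCCAC was found in 0 of 17 promoters of the list and in 1.11% of those of all tested genes.

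Of 18 tested fatty acid synthesis genes 4 were higher and 7 lower, a share called near the 61.5% of all tested genes. Scd1, for stearoyl-CoA desaturase, had 322, 321 and 329.8 CPM at 6 h and 103, 101 and 98.6 CPM at 24 h (log2 fold change -1.69 ± 0.20 SE, adjusted p = 6.74e-08). Fads1, for another desaturase, fell by 1.82 on the log2 scale and Fasn, for fatty acid synthase, by 0.50. Dgat2, which makes triglyceride, rose by 1.20 ± 0.10. In the list of lipid droplets 7 of the 13 tested fell and 2 rose, against 29.9% and 31.6% of all tested genes. G0s2, for an inhibitor of fat breakdown, rose from 74.3, 52.7 and 64.9 to 290.3, 352 and 282 CPM (log2 fold change 2.27 ± 0.10 SE, adjusted p = 2.05e-15). Plin2, for a coat protein of the droplet, was among those that fell (-0.77 ± 0.077).

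Genes of the cytoskeleton and of adhesion had the lowest median of the lists tested. Of 19 tested keratin, contractile and focal adhesion genes, 15 fell and 1 rose, with a median of -1.57. Vcl, for vinculin of focal adhesions, had 509.6, 608 and 539.7 CPM at 6 h and 75.9, 75.0 and 76.2 CPM at 24 h (log2 fold change -2.87 ± 0.10 SE, adjusted p = 2.94e-17). Krt8, for keratin 8, had 1059, 1273 and 1117 CPM and 267, 268 and 257 CPM (log2 fold change -2.12 ± 0.10 SE, adjusted p = 4.89e-15). Lmna, for the lamins A and C of the nuclear envelope, had 800.2, 775 and 888 CPM and 283, 267 and 282 CPM (log2 fold change -1.56 ± 0.067 SE, adjusted p = 7.55e-16). In each gene the lowest 6 h library had over 2-fold the level of the highest 24 h library. Myl9, for a regulatory light chain of myosin, fell from 6.65, 6.58 and 7.29 to 0.296, 0.280 and 0.343 CPM (log2 fold change -4.42 ± 0.33 SE, adjusted p = 1.20e-11). At 24 h Myl9 lay near the floor of these libraries (0.2246, 0.2754 and 0.2071 CPM), so the size of its fall is uncertain. Acta2, for smooth muscle actin, had 0 counts in all 6 libraries.

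Srf, for the factor that drives many contractile and immediate early genes, itself fell, from 166, 181 and 186 to 69.5, 68.6 and 65.8 CPM (log2 fold change -1.39 ± 0.089 SE, adjusted p = 8.75e-13). Its own element, the CArG box, was found in 0 of 16 promoters of the contractile list, in 4 of 16 of the immediate early list and in 1.16% of those of all tested genes. The window of Srf, at chr9:21923965-21924054, plus strand, holds a pair of them, in capitals.
Srf: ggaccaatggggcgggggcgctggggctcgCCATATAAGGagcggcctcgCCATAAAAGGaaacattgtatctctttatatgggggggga
Of 24 immediate early genes tested 12 fell and 4 rose, against 29.9% and 31.6% of all tested genes. Jun fell from 122, 118 and 129 to 50.5, 66.8 and 54.3 CPM (log2 fold change -1.11 ± 0.12 SE, adjusted p = 8.95e-09) and Arc, known from active synapses, by 1.27 on the log2 scale. Myc, for the growth factor-induced oncoprotein, went the other way, from 5.94, 5.46 and 5.89 CPM at 6 h to 63.3, 73.3 and 61.3 CPM at 24 h (log2 fold change 3.51 ± 0.14 SE, adjusted p = 1.13e-16). Fos had 6.83, 8.14 and 5.89 CPM and 7.26, 11.3 and 7.54 CPM and did not pass (log2 fold change 0.30 ± 0.23 SE, adjusted p = 0.285). Mxd3, a partner of MAX, fell by 1.99, and Dusp6, a phosphatase induced by ERK, by 2.32.

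Of 12 tested genes for catecholamines, the product of chromaffin cells, 3 rose and 5 fell, against 31.6% and 29.9% of all tested genes, with a median of -0.097. Slc18a1, for the vesicular monoamine transporter of chromaffin granules, had 666, 856 and 655 CPM at 6 h and 1354, 1338 and 1246 CPM at 24 h (log2 fold change 0.85 ± 0.11 SE, adjusted p = 1.38e-07). Slc6a2, for the noradrenaline transporter, had 155, 150.0 and 145 CPM and 220.0, 226 and 209 CPM (log2 fold change 0.54 ± 0.075 SE, adjusted p = 8.70e-07). Both were higher in all 24 h libraries. Th, for the rate-limiting enzyme, fell slightly (log2 fold change -0.16 ± 0.054 SE, adjusted p = 0.0116), a call lost without 6 h library 1 (adjusted p = 0.0526) or 24 h library 3 (0.0512). Gch1 and Qdpr, which make and recycle its cofactor, fell by 1.06 and 0.80 on the log2 scale. Ddc and Dbh, for the enzymes after Th, overlapped between groups and did not pass (-0.040 ± 0.062 and 0.071 ± 0.12).

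Of 10 tested granins and processing genes 3 rose and 3 fell, near the 31.6% and 29.9% of all tested genes. Of the 19 in the files 9 were not tested, and 7 had 0 counts in all 6 libraries. Vgf, for a granin induced by growth factors, had 813, 1002 and 789.5 CPM at 6 h and 145, 122 and 114 CPM at 24 h, with no overlap (log2 fold change -2.77 ± 0.19 SE, adjusted p = 2.89e-12). Chga, Chgb and Scg2, for the main granins, were nearly level, at -0.13 ± 0.100, -0.033 ± 0.082 and 0.12 ± 0.043, and of these only Scg2 passed, as higher, a call lost without 6 h library 1 or 3 or 24 h library 2 (edgeR, adjusted p up to 0.0758). Of 10 transcription factors of the sympathoadrenal lineage 6 rose and 3 fell, against 31.6% and 29.9% of all tested genes. Gata2 rose from 444, 382 and 440.0 to 823, 967 and 824 CPM (log2 fold change 1.05 ± 0.065 SE, adjusted p = 4.38e-13).

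Of 35 genes of neurite growth tested 21 fell and 10 rose, with a median of -0.35. Besides Sprr1a, Dclk1 and Stmn4, the neurofilament genes Nefl and Nefm fell, by 1.37 and 1.08 on the log2 scale, and Tubb2a, for a β-tubulin, by 1.67. Ngfr, for the neurotrophin receptor p75, rose by 0.93 ± 0.090. Kif21b, for a kinesin of neurites, rose from 1.33, 0.173 and 0.200 to 17.8, 31.2 and 20.7 CPM (log2 fold change 5.29 ± 0.38 SE, adjusted p = 8.49e-12), with 6 h library 1 above the other 6 h libraries. In 6 h libraries 2 and 3 Kif21b lay below the floor (0.2559 and 0.2965 CPM), so the size of its rise is uncertain. Of 26 axon guidance genes 9 were higher and 8 lower, shares near the 31.6% and 29.9% of all tested genes. Unc5b, for a netrin receptor, had 146, 125 and 143 CPM and 706, 855 and 722 CPM (log2 fold change 2.46 ± 0.098 SE, adjusted p = 1.79e-16). Slit2, for a repulsive guidance cue, had 39.8, 35.2 and 35.7 CPM and 9.18, 4.67 and 9.74 CPM (log2 fold change -2.19 ± 0.18 SE, adjusted p = 6.28e-11). The groups of both were far apart, Unc5b higher and Slit2 lower.

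Of 29 synaptic and exocytosis genes tested 10 fell and 6 rose, against 29.9% and 31.6% of all tested genes, with a median of -0.082. Rab3a, for the small GTPase of secretory vesicles, rose from 16.8, 14.7 and 17.3 to 66.7, 67.8 and 67.1 CPM (log2 fold change 2.05 ± 0.096 SE, adjusted p = 3.33e-15). The fusion proteins Snap25, Stx1a and Syt1 fell by 0.52, 0.81 and 0.27 on the log2 scale. Cacna1a, the rat gene that corresponds to the source of α1ACT, had 15.3, 14.7 and 14.2 CPM and 16.4, 15.6 and 18.7 CPM and did not pass (log2 fold change 0.20 ± 0.12 SE, adjusted p = 0.139), although the groups did not overlap. Cacna1b, for the N-type calcium channel, rose by 0.55 ± 0.079 and Cacna2d1, an auxiliary subunit, by 0.52 ± 0.076. Itpr1, for a calcium release channel of the endoplasmic reticulum, fell by 1.42.

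Glycolysis and hypoxia genes were more often lower, 19 of 35 against 10 higher, with a median of -0.36. Pgk1, for phosphoglycerate kinase, had 976, 940.2 and 983 CPM at 6 h and 579, 580.4 and 588 CPM at 24 h (log2 fold change -0.73 ± 0.044 SE, adjusted p = 2.73e-13). Slc2a1, for the glucose transporter GLUT1, had 82.3, 83.7 and 80.5 CPM and 43.5, 41.4 and 44.2 CPM (log2 fold change -0.93 ± 0.10 SE, adjusted p = 2.48e-08). Both fell without overlap, whereas Vegfa, for the vascular growth factor, rose from 527, 477 and 483 to 1162, 1110 and 1151 CPM (log2 fold change 1.20 ± 0.086 SE, adjusted p = 6.23e-12). Of 51 genes of the respiratory chain and ATP synthase 24 fell and 10 rose, with a median of -0.13. Of all tested genes 29.9% fell and 31.6% rose. Atp5b, for the catalytic subunit of ATP synthase, fell by 0.55 and Uqcrc1, of complex III, by 0.73 on the log2 scale, while Cox4i1, of complex IV, rose by 0.19 ± 0.049.

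Markers of other cell types were counted beside these lists. Of 12 epithelial markers in the files 9 could be tested, 1 higher and 4 lower, and their summed level went from 1697 to 2028 CPM to 727 to 761 CPM, mostly through Krt8 and Krt18, which are also in the keratin and contractile list. Epcam, a defining epithelial marker, had 307, 370.1 and 313 CPM and 182, 199 and 189 CPM (log2 fold change -0.80 ± 0.086 SE, adjusted p = 1.33e-08), and Cdh1 had under 3 CPM in every library. Fibroblast markers summed to 681 to 711 CPM and 709 to 761 CPM, almost all of it Thy1, which neurons share and which passed as higher without 24 h library 2 (edgeR, adjusted p = 0.0293), with Col1a2, Col3a1, Lum, Fap and Pdgfrb at 0 in all. Immune markers summed to 1.798 to 2.57 CPM and 2.22 to 3.22 CPM, with Ptprc at 0, and endothelial markers to 2.70 to 3.81 CPM and 3.57 to 4.20 CPM. Schwann and glial markers summed to 54.4 to 59.0 CPM and 60.2 to 62.3 CPM, with Sox10 at 0. Of the last 4 lists 10 members were tested and 2 passed, both higher, among them Lyz2. A count of 0 need not mean absence, since the ribosomal protein genes Rpl7a and Rpl8 also had 0 counts in all 6 libraries. The part of the epithelial markers in the fall of the cytoskeletal genes was not tested.

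The same contrast was set beside 2 others that share no library with it. The vector line labelled 10 d against 3 d is, by the file names, 3 d against 6 h in the line named Q11, the prefix that the labels give to α1ACT. There 6419 genes (64.2%) were called, 33.2% higher and 31.0% lower. Of the 6149 genes called for 24 h against 6 h 5246 were called in it too, which is 85.3% of the former and 81.7% of the latter, and 5236 of them in the same direction. Across the 9994 tested genes the 2 sets of log2 fold changes had a Pearson r of 0.927, as a description over genes that share depth and composition and are not independent. The test of the difference between both changes called 23 genes (0.230%). By the labels these are successive steps in 1 line, and by the file names the same step in each of the lines.

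Counts for 3 of the lists were similar in that contrast. The integrated stress response had 21 of 22 higher with a median of 2.03, mitosis 29 of 30 lower with a median of -1.13, and cholesterol synthesis 17 of 24 lower with a median of -0.78. The difference was called for 0 members of these 3 lists, and for only 0.230% of all tested genes. A count of 0 in lists of this size therefore says little about their members. Chac1 had 4.45 ± 1.18 CPM at labelled 3 d (SD, n = 3) and 152 ± 10.8 CPM at labelled 10 d, beside 4.41 ± 0.710 and 111 ± 10.7 CPM at 6 h and 24 h. By the labels its level in the vector line was thus low, high, low and high in order of time, and by the file names it was low at 6 h and high at 3 d in both lines. Over all tested genes the group means of labelled 6 h and 3 d lay 0.194 log2 CPM apart and those of 24 h and 10 d 0.222 apart, against 0.644 between 6 h and 24 h.

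Of these 23 genes, those with the smallest p are named here. Ncald, for the calcium sensor neurocalcin δ, rose by 0.65 ± 0.085 here and stood at -0.18 ± 0.086 in the other, a difference of 0.83 ± 0.12 (edgeR, adjusted p = 0.00341). Its libraries had 163, 137 and 170.4 CPM at 6 h and 267, 217 and 252 CPM at 24 h, against means of 178 and 157 CPM at labelled 3 d and 10 d. Cyb561, for the cytochrome of chromaffin granules, rose in both, by 0.72 ± 0.050 and 0.29 ± 0.050 (adjusted p of the difference = 0.00787). The P2X2 receptor gene P2rx2 rose by 0.22 ± 0.050 and fell by 0.18 in the other. The count of 23 depended on 1 library at a time, ranging from 5 without 24 h library 1 to 56 without 24 h library 2.

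The α1ACT line labelled 24 h against 6 h is, by the file names, 10 d against 24 h in the vector line. It had 4409 calls (44.1%), 21.7% higher and 22.4% lower. Of the genes called in the vector line 2986 were called there as well, 48.6% of the former and 67.7% of the latter, and 1962 of these moved the same way. Pearson r across genes was 0.361. The test of the difference called 5136 genes (51.4%). By the labels this is the difference of both lines over the same step, and by the file names that of 2 steps of the vector line.

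Most stress genes rose in both contrasts, whereas most division genes fell in the vector contrast and few in the other. In the α1ACT contrast 20 of 22 integrated stress response genes were higher, with a median of 1.48, and 14 of the 22 differed from the vector contrast. Slc7a11 rose by 4.37 ± 0.23 in the vector line and by 4.34 ± 0.27 in the other. In the mitosis list 15 of 30 were higher and 3 lower, with a median of 0.19, and the difference was called for all 30. For Top2a the group means were 568 ± 26.4 CPM and 705 ± 103 CPM over the 3 libraries of each α1ACT group (mean ± SD), against 749 ± 23.3 and 234 ± 41.6 CPM in the vector line. Cholesterol synthesis had 4 higher and 9 lower of 24, with the difference called for 17.

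The differences from the α1ACT contrast with the smallest p included genes that moved in opposite directions. Unc5b rose by 2.46 ± 0.098 in the vector line and fell by 0.75 in the other, from 266 ± 20.1 to 158 ± 28.6 CPM (difference 3.21 ± 0.14, edgeR, adjusted p = 1.22e-14). Zmynd8, for a reader of histone marks, rose by 1.04 ± 0.066 and fell by 1.06. Fdps and Tagln2, the latter for an actin-binding protein, fell in the vector line by 1.505 and 1.40 and rose in the other by 0.41 ± 0.072 and 0.18 ± 0.058. Acat3 fell in the vector line by 1.73 and in the other stood at 0.12 ± 0.070, which did not pass.

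**Figure D3:**
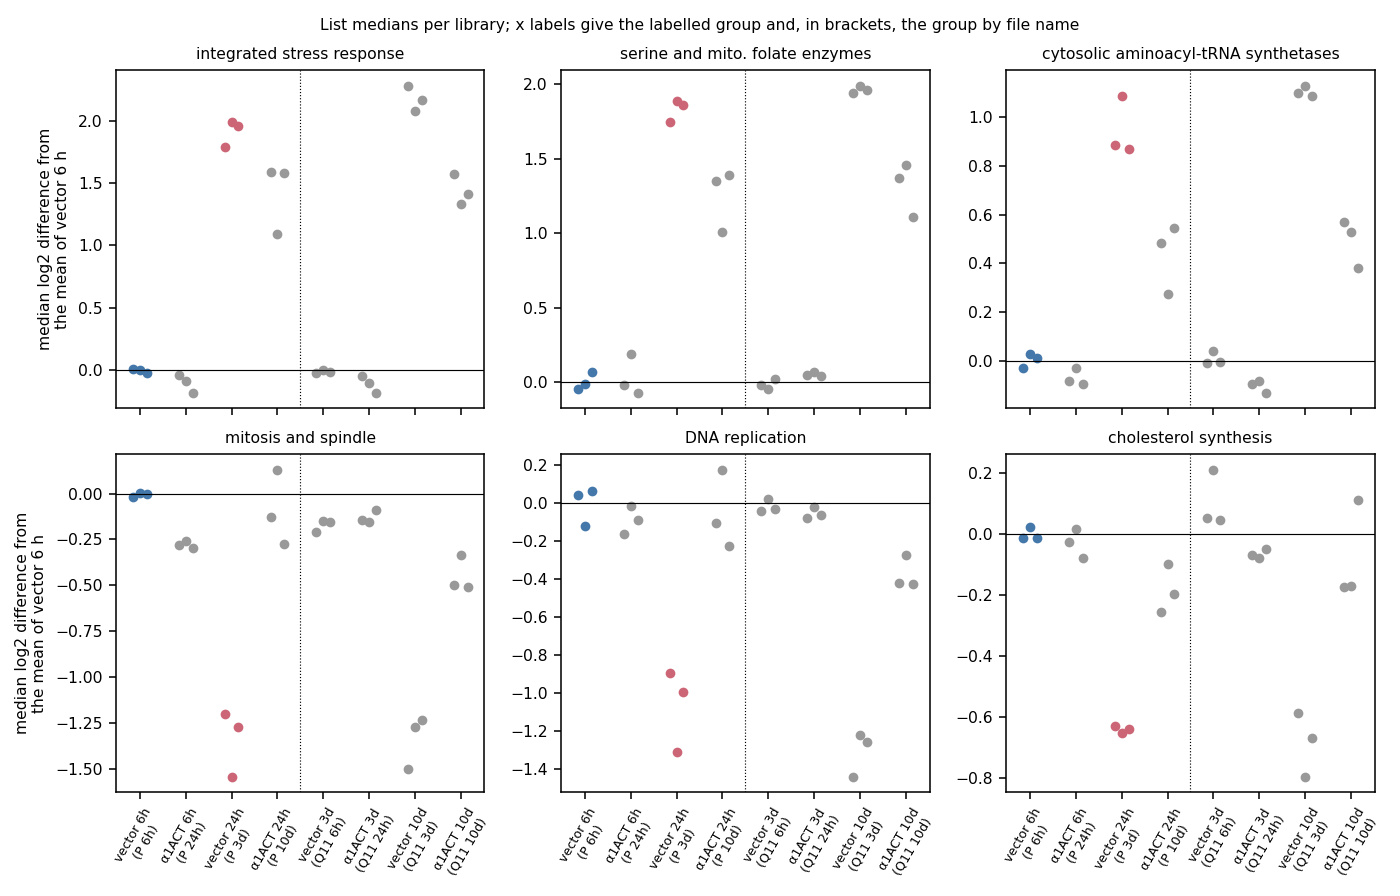
Median over the tested members of 6 lists of the log2 difference of each library from the mean of the vector libraries labelled 6 h; each point is 1 library, and the x axis gives the labelled group with the group by file name in brackets (P for vector, Q11 for α1ACT). The integrated stress response medians are 1.79 to 1.99 in the vector libraries labelled 24 h and -0.022 to -0.0031 in those labelled 3 d, while mitosis stands at -1.54 to -1.20 and -0.21 to -0.15.

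**Figure D4:**
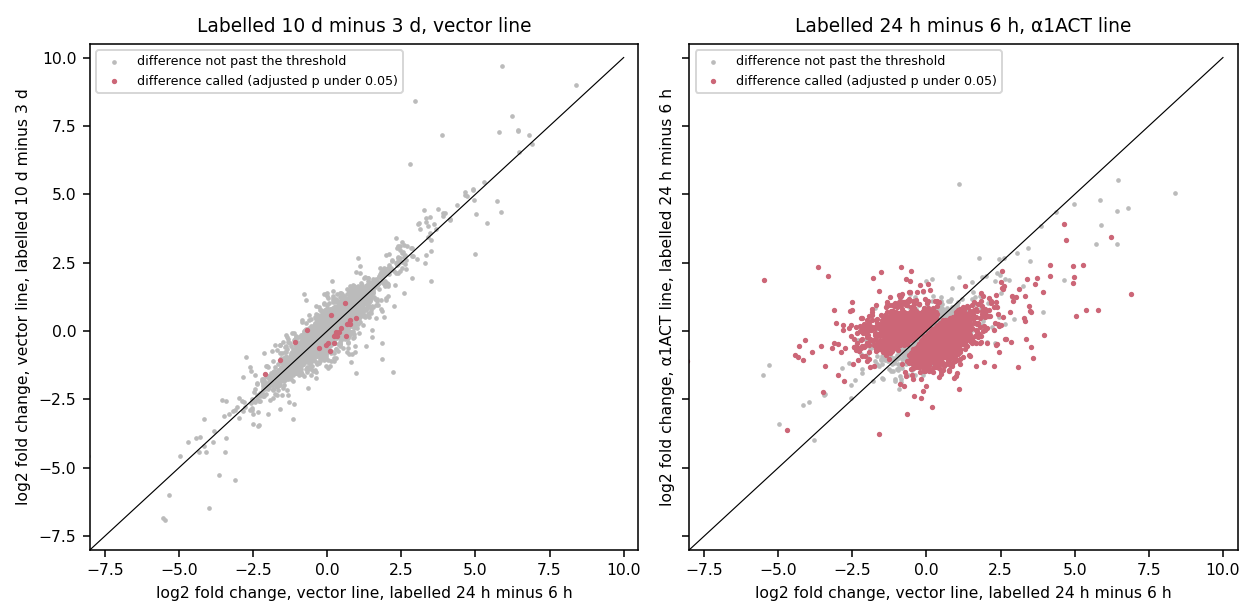
Log2 fold changes of the 9994 tested genes for vector 24 h minus 6 h (x axes) against vector 10 d minus 3 d (left) and α1ACT 24 h minus 6 h (right), all by label; the line marks equal values, and red points are genes whose difference was called. The left cloud follows the line, with 23 red points, and the right cloud does not, with 5136.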

How the data were processed

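Total RNA of PC12 cells was sequenced on a HiSeq2500, per the labels' protocols, after stranded library preparation with depletion of ribosomal RNA. The authors deposited 1 table per library of raw read counts per gene symbol (whole numbers, no normalization, 17055 genes). The submitters' processing notes name HTSeq 0.5.4p5, TopHat2 2.0.10, edgeR, FastQC 0.11.2 and Picard 1.117, and the rat build rn5. The gene annotation, tool settings, handling of duplicates and whether counting used strand: not given in the sources used here. Without strand, overlapping antisense genes share reads. Reads outside genes (47.8% to 50.6% of uniquely aligned reads in the 6 libraries) and the other summary lines stayed out of library sizes and tests.

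Files were matched to samples by accession and groups taken from the labels. All 24 libraries were fitted with the quasi-likelihood test of edgeR 4.0.16 in R 4.3.3, with TMM factors (0.983 to 1.011 in the 6 libraries), 1 coefficient per group and edgeR's filter (minimum count 10, total 15), which kept 9994 genes. The common biological coefficient of variation was 5.755%, with 16 residual degrees of freedom. p-values were adjusted by Benjamini-Hochberg over all tested genes, with a threshold of 0.05. The script was tested on simulated data. Counts of libraries of 1 group differed by more than sampling noise (chi-square per degree of freedom 1.807 to 5.277), so none was treated as a repeat of another. Each other scaling moved the median log2 fold change by less than 0.1.

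Genes named are the 12 largest rises and 12 largest falls, as described, preset key members and the 4 called members of smallest p per list, Cacna1a, the 6 smallest p of each difference test, and members that went against their list or did not pass, which were chosen after their values were seen. The comparison, the lists and the rule were chosen with earlier results of these data known. Some genes that the rule names are not reported here. Lists are described by counts and medians, with no set test.

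Promoter windows are those of RefSeq on GRCr8, not rn5. Of 9994 tested genes 8086 (80.9%) matched one by symbol or synonym, and the first start listed was used. Flanks of 30 bases are shown. Alternatives were other scaling factors, no filter, DESeq2 1.42.0, the compared libraries alone, a replicate block and leaving out libraries.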

Additional observations from a re-analysis of the deposited data

Results flagged for a closer look

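2 sets of results differed between contrasts by a test of the difference itself. The change at 24 h against 6 h in the vector line differed from that of the vector line at labelled 10 d against 3 d in 23 genes. The 6 with the smallest p were Ncald, with a difference in log2 fold change of 0.826, Cyb561 (0.437), Ilf2 (0.531), Mst4 (0.477), Atp1b1 (0.367) and P2rx2 (0.399), all more positive at 24 h against 6 h.

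The vector change differed from that of the α1ACT line at the same labels in 5136 genes. Among those with the smallest p were Unc5b (3.21), Zmynd8 (2.10), Tagln2 (-1.58), Fdps (-1.91) and Acat3 (-1.85). By the file names this second difference sets 3 d against 6 h beside 10 d against 24 h within the vector line.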

How the results depend on the processing

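The count of 6149 called genes lay between 5930 and 6309 under other scaling factors, no filter, DESeq2, the 6 libraries alone and a replicate block, and between 5061 and 5942 with libraries left out. No gene called in both changed sign, and 48.9% to 53.4% of calls were higher. Same-numbered libraries deviated together with r of 0.112, 0.232 and 0.0985, and differently numbered ones had r of -0.182 to 0.118. The labels do not say that the numbers mark a shared batch or culture, so they were not taken to pair samples. A shared effect of the number was not tested. With the replicate block 6309 genes were called, and Cdkn1a and Xbp1 passed (edgeR, adjusted p = 0.0146 and 0.0424). The count of 23 genes that differed from labelled 10 d against 3 d was not stable. It was 52 with no filter, 67 with DESeq2, 7 with the 12 libraries alone, 65 with the replicate block and 0 to 124 with libraries left out. It was 0 in edgeR without replicate 1, where 851 genes had an unadjusted p under 0.05, and without replicate 3, where 862 had. The count of 5136 genes that differed from the α1ACT contrast lay between 3741 and 5312. Of 193 genes named, 172 kept direction and side of the threshold under each alternative. The values of 9, none of which had passed, changed sign when libraries were left out, with ranges over these fits, on the log2 scale, for Cdh1 (-0.90 to 0.39), Chga (-0.27 to 0.080), Chgb (-0.10 to 0.020), Dbh (-0.090 to 0.19), Ddc (-0.12 to 0.054), Hmmr (-0.0035 to 0.076), Insig1 (-0.093 to 0.044), Mst4 (-0.048 to 0.071) and Rps6 (-0.31 to 1.37). Depth sets what can be seen in the genes near the floor of 3 counts, such as Inhbe and Il9r, whose ratios are known only within the intervals given.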

Other observations

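Further lists held single genes that changed. In the interferon and antigen presentation list 8 of 26 tested genes rose and 6 fell, against 31.6% and 29.9% of all tested genes. The list as a whole was level, with a median of -0.00165. Ifi35 and Stat2, both known from the interferon response, rose by 0.98 ± 0.081 and 0.98 ± 0.085 (log2, SE), and B2m, the light chain of class I antigen presentation, by 0.42 ± 0.069. Irf7 and Psmb10 fell by 0.89 and 0.79 on the log2 scale. The largest falls of the list, named after their values were seen, were those of Cxcl10, for a chemokine, with 54 counts in all at 6 h and 6 at 24 h, a fall by a factor of between 4.52 and 29.9 after allowing for depth (95% interval from counting), and of Oas1b, by 1.35 on the log2 scale. Of 21 p53 target genes tested 7 rose and 2 fell, against 31.6% and 29.9% of all tested genes, and 12 did not pass. The list as a whole was near level, with a median of 0.0432. Among the risers were Tp53inp1 at 1.18 ± 0.13 and Gadd45a at 0.84 ± 0.15.

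Of 22 tested NRF2 targets 11 fell and 7 rose, against 29.9% and 31.6% of all tested genes. Nfe2l2, the gene of NRF2 itself, rose from 132, 133 and 132 CPM to 331, 404 and 348 CPM (log2 fold change 1.45 ± 0.079 SE, adjusted p = 4.78e-14 in edgeR), whereas its targets Srxn1 and Nqo1 fell by 0.75 and 0.34 on the log2 scale. Hmox1, for haem oxygenase, rose by 0.56 ± 0.12. Of 20 heat shock genes 7 were higher and 7 lower, shares near those of all tested genes (31.6% and 29.9%), with the mitochondrial chaperone Hspa9 at 0.95 ± 0.090 and the cytosolic Hsp90aa1 at -1.08 ± 0.089.

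Among ion channels, Kcnh1, for a potassium channel of the ether-à-go-go family, rose from 1.34 ± 0.559 CPM to 13.2 ± 2.57 CPM (mean ± SD over 3 libraries, log2 fold change 3.31 ± 0.27 SE, adjusted p = 5.80e-11 in edgeR), and Kcna3 fell from 11.5, 10.8 and 12.7 to 4.74, 2.43 and 3.36 CPM. Calb2, for the calcium buffer calretinin, had 0 counts at 6 h and 36 at 24 h. That is 10.3-fold higher if 6 h is set to 3 counts over the whole group. The floor used elsewhere is 3 counts per library, which gives a smaller ratio, so the size of the rise is uncertain. Rgs9 rose by 1.247 ± 0.091, and Htr3a, for a serotonin-gated channel, fell by 1.83 on the log2 scale.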
